A study of Mus musculus with 14 samples.

Results

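The oligoadenylate synthetase family was described across both tissues of the study. The family was taken as 8 genes (Oas1a, Oas1b, Oas1c, Oas1g, Oas2, Oas3, Oasl1 and Oasl2), each read from the probe sets that the platform annotation pairs with that gene alone. By this rule 7 of the 8 genes were measured, of 22180 genes on the array, and each of the 7 had 1 probe set. Oas1a was not measured alone, since its 1 probe set is shared with Oas1g. The family was selected on its values in CD115+ blood cells, where Oas1g and Oas2 showed some of the clearest differences between the genotypes. The values of that comparison are therefore given as a description and were not tested.

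The study measured mRNA on 14 arrays, in 4 groups of male mice, with littermates as controls. Double-deficient CD115+ cells (apoE-/-LTbR-/-, 3 preparations) were set against ApoE-deficient CD115+ cells (apoE-/-, 3 preparations), and double-deficient aortas (4) against ApoE-deficient aortas (4). Every group, controls included, lacked apolipoprotein E and ate a Western-type diet for 4 weeks from 8 weeks of age, so that all mice were 12 weeks old. CD115, which blood monocytes bear, is a growth factor receptor, and cells with it were taken with antibody-coated beads from blood spun over Ficoll. Aortas kept their perivascular fat. The ApoE-deficient CD115+ replicates 3 and 4 were each a pool of 2 littermates, and the labels call every other RNA preparation that of a single sample. The labels give neither a strain background nor which bloods and aortas, if any, share a mouse. The deposited log2 values had been centred for each probe set and tissue: 0 is the median array of that tissue, and levels of different genes or tissues cannot be compared. Whether CD115 or any other defining marker was present could not be checked for the same reason. Differences are double-deficient minus ApoE-deficient.

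Oligoadenylate synthetases are enzymes that bind double-stranded RNA, as viruses make it, and join ATP into short chains of oligoadenylate. These chains switch on RNase L, which cuts viral and cellular RNA. The genes are classic targets of type I interferon, which acts through a DNA element of repeated GAAA units in the promoters of responsive genes. Mice have many copies of Oas1 beside single copies of Oas2 and Oas3, all in 1 cluster on chromosome 5, and the related Oasl1 and Oasl2 elsewhere on the same chromosome.

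The targeted gene followed the labels in both tissues. Ltbr, which encodes the lymphotoxin beta receptor, was at -0.07, -0.62 and -0.44 in double-deficient CD115+ cells, against 0.55, 0.07 and 0.40 in ApoE-deficient CD115+ cells. In double-deficient aortas it averaged -0.97 ± 0.34, against 0.68 ± 0.16 in ApoE-deficient aortas (SD, n = 4 each), and neither tissue had overlapping groups. The difference did not pass the adjusted threshold in limma in CD115+ cells (adjusted p = 0.976) or in aorta (adjusted p = 0.0679). Whether its probe set lies within the deletion is not stated. The preparations of CD115+ cells were unequal in the genes of other blood cells. All 7 measured B cell genes had higher means in double-deficient cells, and the mean of the list was -0.38, 2.07 and 1.11 in double-deficient replicates 1, 2 and 3, against 0.38, -0.97 and -0.94 in ApoE-deficient replicates 1, 3 and 4. All 8 T cell genes had higher means as well, with list means from 0.04 to 0.41 in double-deficient cells, against -0.26 to -0.03 in ApoE-deficient cells. Of 8 macrophage genes 7 had lower means, with list means from -0.34 to 0.02 in double-deficient cells, against 0.10 to 0.12 in ApoE-deficient cells. Double-deficient replicate 2 also had the highest mean of the neutrophil list (1.56) and of the platelet list (1.63). Double-deficient replicate 1 had the lowest mean of the monocyte list (-0.63), with Csf1r, the gene of CD115 itself, at -0.62 there, against -0.14 and 1.29 in double-deficient replicates 2 and 3.

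The promoter of Oas1g is shown because Oas1g had the largest difference of the family, that of Oas3 because it also holds the motif, and that of Oasl2 because it does not. They are the 250 bases before the transcript start in RefSeq's GRCm38.p6 table, 5′ to 3′ on the strand of the gene. Capitals mark the motif searched on both strands, GAAA, any 2 bases and GAAA again, the repeated unit of the interferon-response element. The regions are chr5:120887614-120887863 on the minus strand for Oas1g, chr5:120777660-120777909 on the minus strand for Oas3 and chr5:114896684-114896933 on the plus strand for Oasl2.
Oas1g: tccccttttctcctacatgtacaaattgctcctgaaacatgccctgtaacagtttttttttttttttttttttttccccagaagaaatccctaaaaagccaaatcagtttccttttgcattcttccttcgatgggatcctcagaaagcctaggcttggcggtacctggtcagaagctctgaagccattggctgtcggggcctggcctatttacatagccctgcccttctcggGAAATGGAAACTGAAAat
Oas3: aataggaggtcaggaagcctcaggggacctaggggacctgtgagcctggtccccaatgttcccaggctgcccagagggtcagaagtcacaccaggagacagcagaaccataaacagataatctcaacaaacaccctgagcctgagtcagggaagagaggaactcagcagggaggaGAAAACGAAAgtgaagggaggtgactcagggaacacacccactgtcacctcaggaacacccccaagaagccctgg
Oasl2: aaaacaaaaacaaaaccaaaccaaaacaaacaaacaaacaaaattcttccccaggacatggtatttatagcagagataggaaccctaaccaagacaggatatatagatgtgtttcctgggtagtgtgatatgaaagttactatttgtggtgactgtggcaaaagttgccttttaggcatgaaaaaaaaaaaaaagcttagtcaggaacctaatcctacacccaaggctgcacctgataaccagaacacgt

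In Oas1g 2 overlapping matches made 1 run of 16 bases, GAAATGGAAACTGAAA, whose last base stood at position -3 from the transcript start. The same run stood in the promoter of Oas1a and, read on the opposite strand, in that of Oas1c. The windows below show both, with the matches in capitals. The first is chr5:120907526-120907565 and the second chr5:120812593-120812648, both on the minus strand.
Oas1a: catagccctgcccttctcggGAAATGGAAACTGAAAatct
Oas1c: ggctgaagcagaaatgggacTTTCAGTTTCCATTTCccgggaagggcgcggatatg

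The promoters of Oas1g and Oas1a were alike over their whole length, with 261 of 294 aligned bases identical (88.8%). The run beside Oas1c also lies 6 bases outside the annotated boundary of Oas1b, which begins at position 120812635, since the 2 genes adjoin there. Matches to the motif were found in 4 of the 6 family members with an entry in the table (Oas1g, Oas1a, Oas3 and Oas1c), within windows of 300 bases that reach 50 bases past the start. Of all 32851 such windows 3.44% held a match. The 16-base run, chosen after it was seen in Oas1g, was in 7 of the 32851 windows (0.0213%), which belong to Oas1a, Oas1c, Oas1g and the apolipoprotein L genes Apol9a and Apol9b. A match is a description of the sequence and not evidence that a factor binds there. No match was found in the windows of Oasl1 and Oasl2, nor in those of Oas1f and Oas1h.

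**Figure D1:**
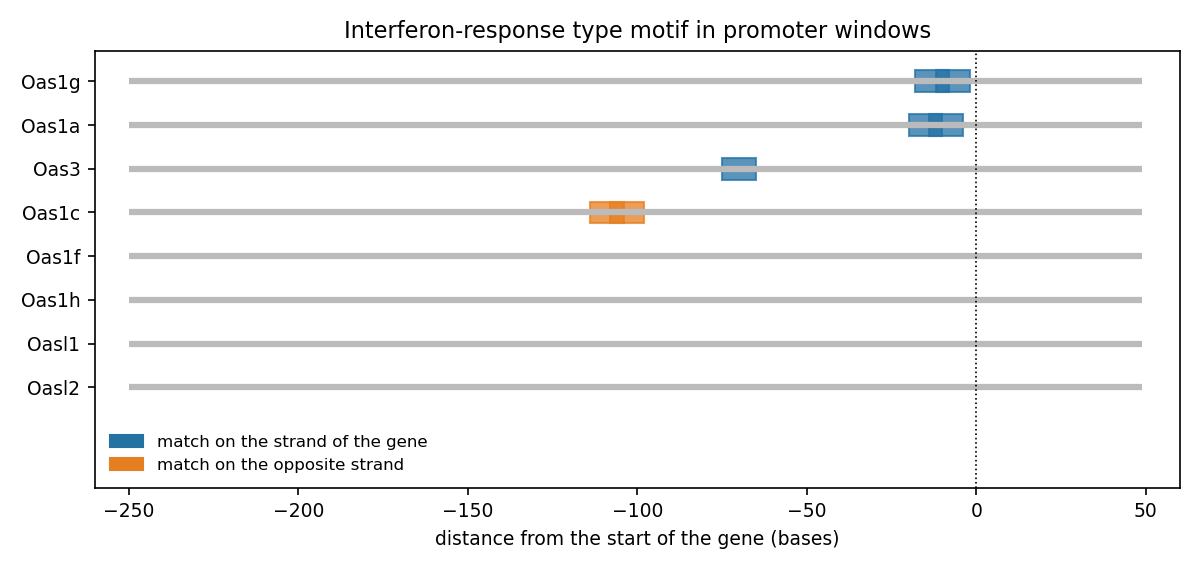
Positions of the motif (GAAA, any 2 bases, GAAA) in the promoter windows of 8 oligoadenylate synthetase genes. The x axis is the distance from the start of the gene in bases, each grey line is 1 window, and boxes are matches (overlapping boxes are overlapping matches). Oas1g, Oas1a and Oas3 hold matches on their own strand, Oas1c on the opposite strand, and the other 4 hold none.

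In CD115+ blood cells 6 of the 7 measured genes had lower means in double-deficient mice, where 55.3% of all genes did. The largest difference was that of Oas1g, which encodes an active short-form synthetase. Its values were -1.08, -1.02 and -0.56 in double-deficient preparations, against 0.83, 0.95 and 0.56 in ApoE-deficient preparations. All double-deficient values lay below all ApoE-deficient values, and the gap between the groups (1.13) was wider than the range within either. The means were -0.89 ± 0.28 and 0.78 ± 0.20 (SD, n = 3 each), a log2 difference of -1.67 (SE 0.17), or 3.18-fold lower. The probe set shared by Oas1a and Oas1g gave a smaller difference of -0.60, with -0.47, -0.56 and -0.06 in double-deficient preparations, against 0.34, 0.06 and 0.31 in ApoE-deficient preparations. These groups did not overlap either, but double-deficient replicate 3 was close to ApoE-deficient replicate 3. The sequences of the Oas1 copies are similar, so that probe sets of 1 copy may also take up RNA of another.

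Oas2, an interferon-induced synthetase of medium size, was next. Its values were -1.33, -0.81 and -0.24 in double-deficient preparations, against 0.26, 0.24 and 0.39 in ApoE-deficient preparations. The ApoE-deficient preparations lay close together (SD 0.08), while the double-deficient ones spread widely (SD 0.54). Unequal spread was not particular to Oas2. Over all probe sets the SD within an array was 0.19 to 0.25 in double-deficient and 0.13 to 0.15 in ApoE-deficient preparations. The log2 difference of Oas2 was -1.09 (SE 0.27), or 2.13-fold lower, and without double-deficient replicate 1 it was -0.82. Oas1g stayed between -1.57 and -1.83 whichever of the 6 preparations was left out.

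Oas1b is the gene whose full-length product protects wild mice from flaviviruses, and the RefSeq table of the C57BL/6J genome lists it as a transcribed pseudogene. Its values were -0.15, -0.34 and -0.13 in double-deficient preparations, against 0.62, 0.13 and 0.17 in ApoE-deficient preparations. The groups did not overlap, and the ApoE-deficient single-mouse preparation (replicate 1) stood above both pools. The log2 difference was -0.51 (SE 0.15), or 1.42-fold lower. With that single-mouse preparation as the 1 ApoE-deficient sample it was -0.83, and with the pools alone -0.35.

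Oasl2, an active synthetase with a ubiquitin-like tail, had -0.68, -0.10 and -0.09 in double-deficient preparations, against 0.33, 0.29 and 0.09 in ApoE-deficient preparations. Here too the groups did not overlap (log2 difference -0.53, SE 0.18), and double-deficient replicate 1 was far below the other two. Without that preparation the difference was -0.33. Oasl1, which lacks synthetase activity and in mice holds back the translation of Irf7, had -0.38, 0.05 and -0.24 in double-deficient preparations, against 0.02, -0.02 and 0.14 in ApoE-deficient preparations. Its groups overlapped through double-deficient replicate 2, and the log2 difference was -0.24 (SE 0.12), with -0.14 without double-deficient replicate 1 and -0.36 without double-deficient replicate 2.

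Oas3, the largest synthetase, which in human cells is the main activator of RNase L, had -0.78, -0.20 and 0.01 in double-deficient preparations, against -0.01, 0.04 and 0.23 in ApoE-deficient preparations. Its groups overlapped by a margin of 0.02. The log2 difference of -0.41 (SE 0.21) was mostly that of double-deficient replicate 1, without which it was -0.18. Oas1c was the exception to the direction, with -0.15, 0.35 and 0.02 in double-deficient preparations, against 0.06, -0.11 and -0.02 in ApoE-deficient preparations. The groups overlapped, and its log2 difference was 0.10 (SE 0.13), with -0.04 without double-deficient replicate 2.

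**Figure D2:**
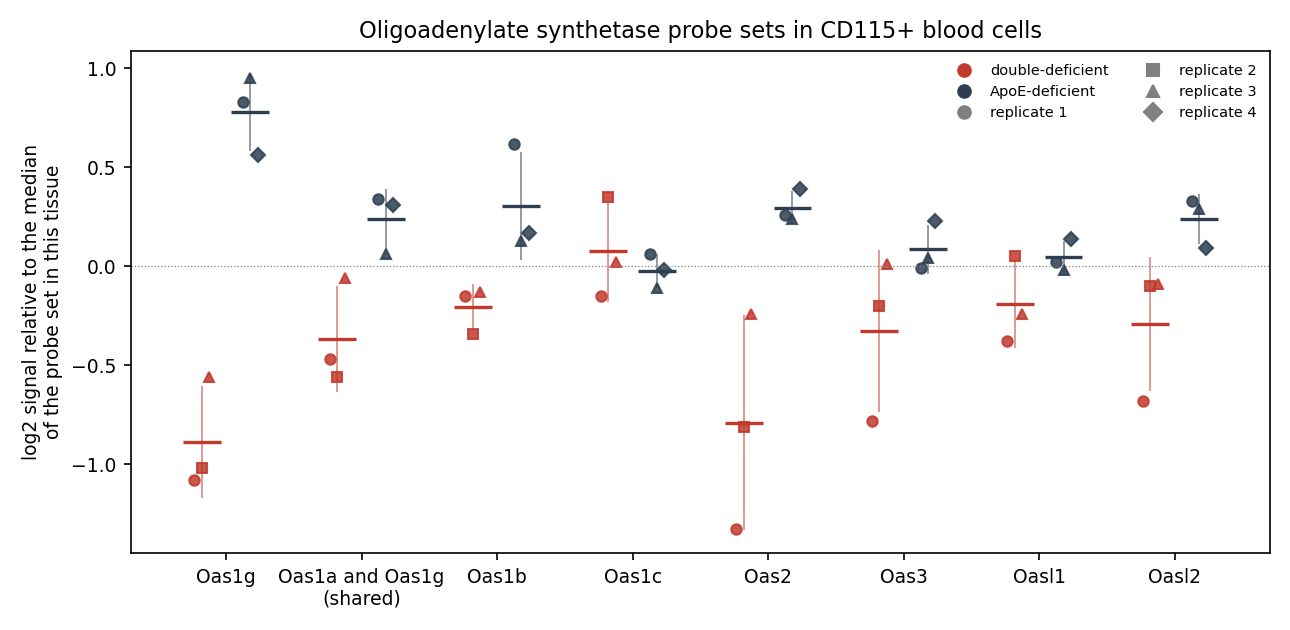
Log2 signal of the 7 measured genes and of the probe set shared by Oas1a and Oas1g in the 6 CD115+ preparations, double-deficient (red) left of ApoE-deficient (dark). Each point is 1 preparation, shaped by replicate number, horizontal bars are means and vertical lines are 1 SD. Oas1g has the widest gap, with double-deficient values from -1.08 to -0.56 and ApoE-deficient values from 0.56 to 0.95.

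Counted over the family, Oas1b, Oas1g, Oas2 and Oasl2 (4 of 7) had every double-deficient value below every ApoE-deficient value, as had 5.23% of all genes. In 0 of 7 did all double-deficient values lie above, as in 3.93% of all genes. The median difference of the 7 genes was -0.51, beside -0.01 over all 22180 genes. Since this contrast chose the family, nothing is read from these counts. In the limma fit over all genes, 0 genes passed an adjusted p of 0.05 in CD115+ cells (0%), and 4.39% had an unadjusted p under 0.05. In a mixed sample, fewer cells of a type and less RNA per cell cannot be told apart.

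The mean of the 7 genes was -0.65, -0.30 and -0.18 in double-deficient replicates 1, 2 and 3, against 0.30, 0.21 and 0.22 in ApoE-deficient replicates 1, 3 and 4. The lowest value was thus in double-deficient replicate 1. Its B cell list mean (-0.38) lay below that of ApoE-deficient replicate 1 (0.38) and above those of ApoE-deficient replicates 3 and 4 (-0.97 and -0.94). The monocyte list was lowest in the same double-deficient preparation. Of the 13 measured genes of that list 7 had lower and 6 higher means in double-deficient cells, with a median difference of -0.01. Ly6c2, a surface marker of classical monocytes and the lowest of the list, was lowest there too, with -2.08, -0.42 and -0.15 in double-deficient preparations, against 0.53, 0.15 and 0.56 in ApoE-deficient preparations. Double-deficient replicate 3 had the highest monocyte list mean (0.67) and a family mean below that of every ApoE-deficient preparation. With double-deficient replicate 1 as the 1 double-deficient sample, an alternative added after the B cell values were seen, the median difference was -0.87 and 7 of 7 genes were below all ApoE-deficient preparations, as were 25.2% of all genes for that 1 preparation. With replicates 2 and 3 only, those rich in B cell genes, the median difference was -0.33. The part of the blood cell mixture in the family's values was not tested.

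**Figure D3:**
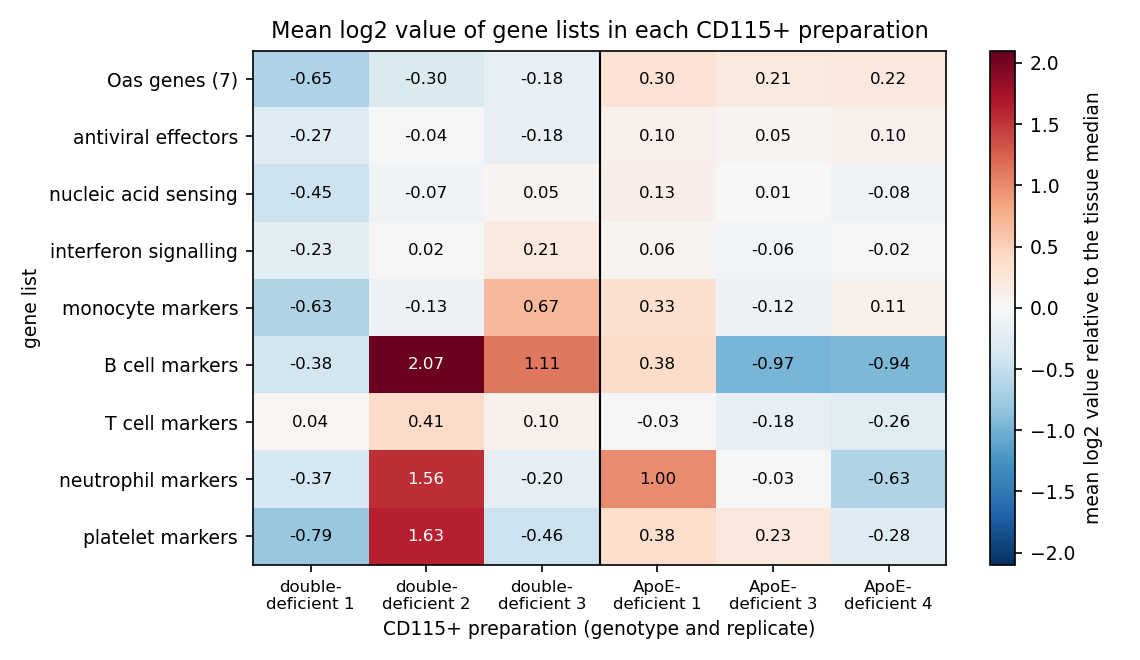
Mean log2 value of the 7 oligoadenylate synthetase genes and of 8 other gene lists (rows) in each CD115+ preparation (columns, double-deficient left of ApoE-deficient), relative to the tissue median, with red for high and blue for low. The family row is negative in all 3 double-deficient and positive in all 3 ApoE-deficient preparations, while the B cell row is highest in double-deficient replicates 2 (2.07) and 3 (1.11).

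The family members were also compared within each genotype. After the mean of each genotype was taken away, pairs were correlated (Pearson) over the 6 CD115+ preparations, which share their genotype means and few degrees of freedom. The highest correlation was 0.95 (Oas2 with Oas3), followed by 0.93 (Oas1c with Oasl1), and the lowest was -0.40 (Oas1b with Oasl1). Over all 21 pairs of measured genes the median of this correlation was 0.46, and 16 were above 0. In aorta, over 8 arrays, the median was 0.03, and Oas2 with Oas3 had 0.42. In CD115+ cells Oas2 and Oas3 both had their lowest value in double-deficient replicate 1 (-1.33 and -0.78). Pairs of other genes were not correlated, so no background stands beside these medians. Among 17105 other genes with proper names, those whose values followed the mean of the 7 genes most closely over the 6 CD115+ preparations were Slc18a1 (r = 0.99), a monoamine transporter, Trmt12 (r = 0.99), a tRNA-modifying enzyme, Wdr91 (r = 0.98), Dhx58 (r = 0.98), a cytoplasmic RNA sensor, and Emc8 (r = 0.97). These values are a description of 6 arrays that share 2 genotype means. Over the 8 aortas the closest were Fut11 (r = 0.96), Noxred1 (r = 0.96), Ppp3cc (r = 0.95), Prickle1 (r = 0.95) and Cbfb (r = 0.94).

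The aorta arrays had no part in the choice of the family and allow a test. In aorta 0 of 7 genes passed the threshold in limma (adjusted p from 0.718 to 0.992 over all 22180 genes) and 0 of 7 had an unadjusted p under 0.05. Of all genes 0.00451% (1 gene) passed the adjusted threshold, and 7.72% had an unadjusted p under 0.05. In 6 of 7 genes the double-deficient mean was lower, beside 47.2% of all genes, and the median difference was -0.18, beside 0.01 over all genes. In 0 of 7 did all double-deficient values lie below all ApoE-deficient values, beside 2.11% of all genes, and in 0 of 7 above, beside 2.19%. The median difference was -0.34 when double-deficient replicate 4 was left out, and -0.11 when ApoE-deficient replicate 1 was.

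Oas1g had 0.11, -0.68, 0.57 and -0.75 in double-deficient aortas, against 0.11, 1.95, -0.28 and -0.11 in ApoE-deficient aortas. The ApoE-deficient mean rested on replicate 2, which stood far above all other aortas, and the groups overlapped. Without that aorta the difference was -0.09. With it, the log2 difference was -0.60 (SE 0.53, 95% interval -1.84 to 0.63, adjusted p = 0.852, limma). Oas2 had -0.05, -0.59, 0.11 and 0.03 in double-deficient aortas, against 0.65, -0.03, -0.07 and 0.10 in ApoE-deficient aortas. Apart from 1 low and 1 high sample the groups covered the same values. Its log2 difference of -0.29 (SE 0.21, adjusted p = 0.801, limma) had a 95% interval from -0.77 to 0.19. It was -0.13 when double-deficient replicate 2 was left out, and -0.12 when ApoE-deficient replicate 1 was. The difference between the tissues itself was not tested, because the CD115+ contrast chose the genes.

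Oas1b had -0.48, -0.84, -0.03 and 0.03 in double-deficient aortas, against -0.42, 0.72, 0.13 and 0.23 in ApoE-deficient aortas. It had the smallest unadjusted p of the family (0.111), a log2 difference of -0.50 (SE 0.28, 95% interval -1.13 to 0.14), and groups that overlapped through ApoE-deficient replicate 1. It was -0.33 when double-deficient replicate 2 was left out, and -0.31 when ApoE-deficient replicate 2 was. The other 4 genes lay between -0.18 and 0.03: Oasl1 at -0.18 (SE 0.21), Oas1c at -0.16 (SE 0.12), Oas3 at -0.14 (SE 0.15) and Oasl2 at 0.03 (SE 0.21). With single aortas left out, Oasl1 lay between -0.35 and -0.045, Oas1c between -0.25 and -0.098, and Oas3 between -0.22 and -0.012. Oasl1 and Oas3 were nearest to 0 without ApoE-deficient replicate 1, and Oas1c without double-deficient replicate 4. The 95% interval of Oasl2 ran from -0.46 to 0.51, and the sign of its difference turned in 4 of the 8 fits that left out 1 aorta. The probe set shared by Oas1a and Oas1g averaged -0.12 ± 0.30 in double-deficient aortas, against 0.11 ± 0.32 in ApoE-deficient aortas (SD, n = 4 each). All 7 B cell genes and all 8 T cell genes had lower means in the same double-deficient aortas, with T cell list means from -1.11 to -0.21 in double-deficient and from 0.10 to 1.20 in ApoE-deficient samples. Of 6 plasmacytoid dendritic cell genes 4 had lower and 2 higher means. The list means ran from -0.72 to -0.11 in double-deficient aortas, against 0.23 to 1.502 in ApoE-deficient aortas. The 1.502 was in ApoE-deficient replicate 2, where Klk1, 1 gene of the list, stood at 6.99. Without overlap were 2 lower genes and 1 higher (Tcf4, 0.23). All 6 NK cell genes had lower means too, with list means from -0.36 to -0.04 in double-deficient aortas, against -0.13 to 0.95 in ApoE-deficient aortas. The part of these cells in the family's aorta values was not tested.

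**Figure D4:**
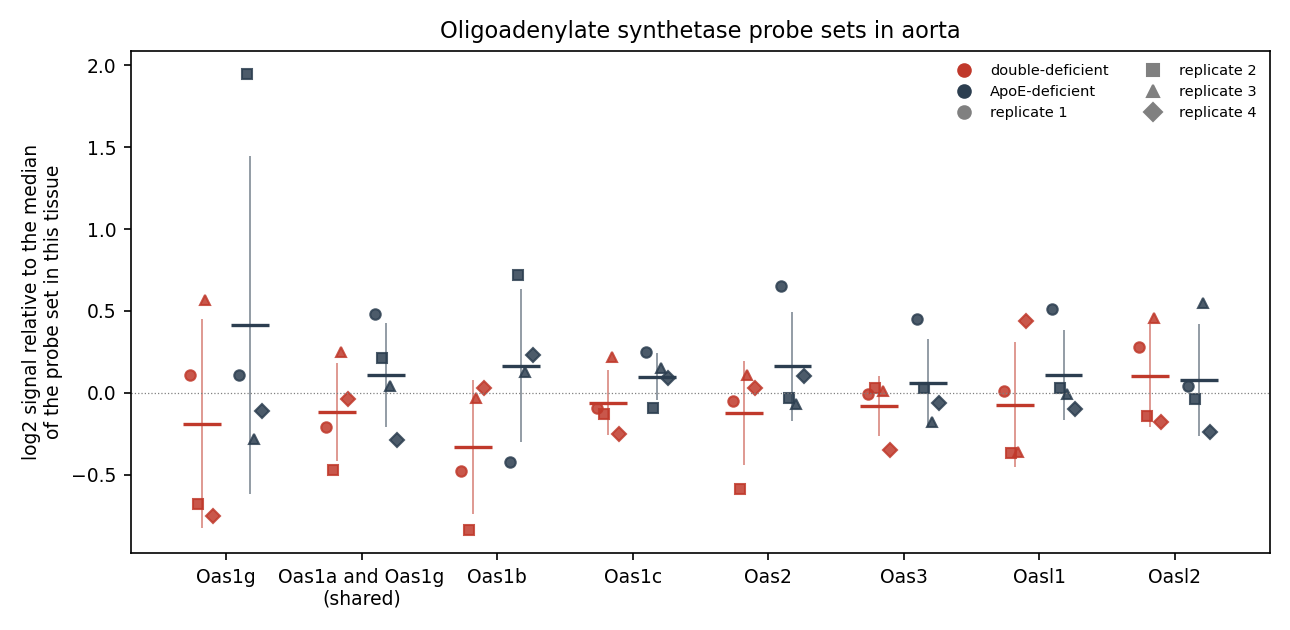
Log2 signal of the same probe sets in the 8 aortas, double-deficient (red) left of ApoE-deficient (dark), with means (horizontal bars) and 1 SD (vertical lines). The groups overlap for every gene, and ApoE-deficient replicate 2 stands out in Oas1g at 1.95.

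The genes were next set in their order along the chromosome. In the GRCm38.p6 table the cluster runs from Oas2 (chromosome 5, 120730333 to 120749886) through Oas3, Oas1e, Oas1c, Oas1b, Oas1f, Oas1h, Oas1g (120876142 to 120887613) and Oas1a to Oas1d (120914818 to 120921648). Of the Oas1 copies outside the family list, Oas1e and Oas1f lie between the genes with the large differences, as does Oas1h, and Oas1d lies at the end. Oas1d, which is known from the mouse ovary, had a log2 difference of -0.03 (SE 0.05) in CD115+ cells. Oas1e differed by 0.06 (SE 0.06), Oas1f by 0.02 (SE 0.05) and Oas1h by -0.06 (SE 0.06). Their groups overlapped. None of these 4 passed the adjusted threshold (adjusted p from 0.976 to 0.982, limma). Since 0 of all 22180 genes passed it in CD115+ cells, this does not set them apart from other genes. Their values hardly moved between preparations at all, since 8.56% to 25.7% of genes had a smaller SD over the 6 arrays, beside 99.8% for Oas1g and 99.2% for Oas2. Without levels, a gene that is off cannot be told from one that is steady.

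Oas1c and Oas1b, whose annotated boundaries adjoin around the 16-base run, differed by 0.10 and -0.51 in CD115+ cells. In the same cells Apol9a and Apol9b, which hold the same run, differed by 0.11 (SE 0.18) and 0.07 (SE 0.09), with groups that overlapped. The 4 measured genes on each side of the cluster, from Ddx54 to Dtx1 and from Rph3a to Hectd4, had differences from -0.15 to 0.17 in CD115+ cells. Over all measured genes with a promoter entry, the 657 that hold the motif had a median difference of -0.01 in CD115+ cells, as had all 16990. Of the 657 genes 8.52% had all double-deficient values below all ApoE-deficient values, beside 5.26% of the 16990, and 4.87% had them all above, beside 3.90%.

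**Figure D5:**
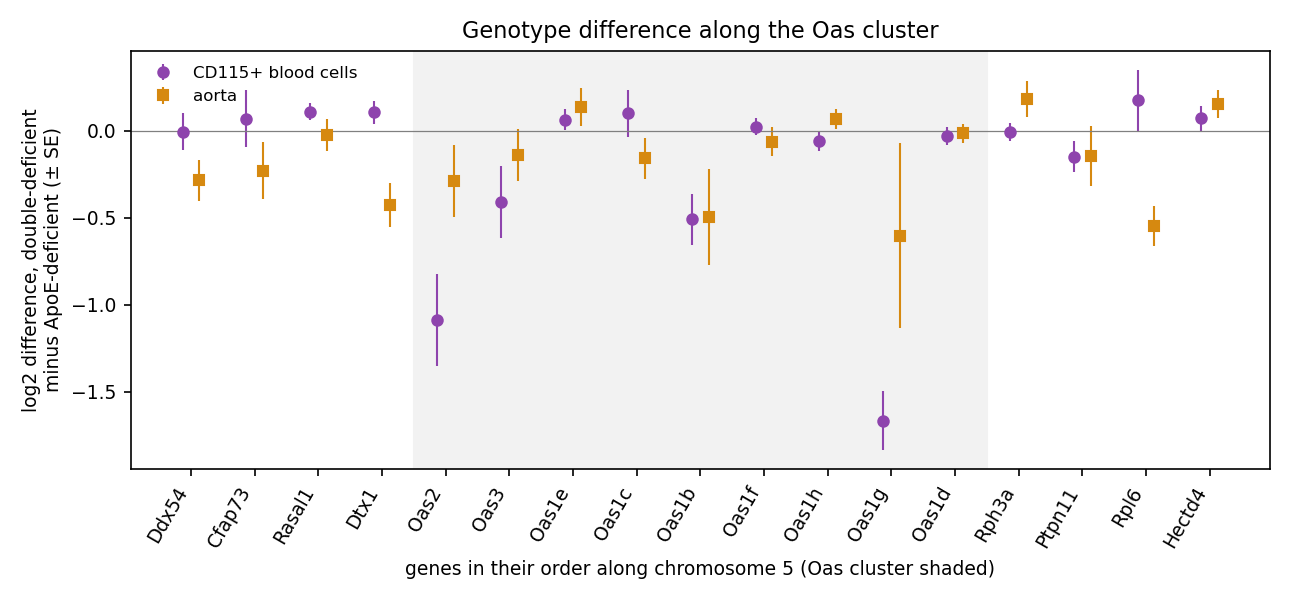
Log2 difference (double-deficient minus ApoE-deficient) with its SE for genes in their order along chromosome 5, in CD115+ blood cells and aorta. The shaded part is the oligoadenylate synthetase cluster, in which Oas2 (-1.09), Oas3 (-0.41), Oas1b (-0.51) and Oas1g (-1.67) lie low in CD115+ cells while Oas1c, Oas1d, Oas1e, Oas1f and Oas1h stay between -0.06 and 0.10.

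Genes that act after the synthetases were taken from a list that also holds the Oas1 copies outside the family. That list was chosen with earlier results of these data known. RNase L was not analysed here. Abce1, a ribosome-recycling factor first described as an inhibitor of RNase L, had a log2 difference of -0.02 (SE 0.08) in CD115+ cells and -0.11 (SE 0.11) in aorta. Pde12, a phosphodiesterase that breaks down oligoadenylates, had -0.16 (SE 0.08) in CD115+ cells and -0.09 (SE 0.15) in aorta. In CD115+ cells its groups did not overlap (lower, as in 5.23% of all genes), but the gap was only 0.008. Of the 6 measured genes of that list, the Oas1 copies included, 0 passed the adjusted threshold in either tissue (limma). Of all genes 0% passed it in CD115+ cells and 0.00451% in aorta. At an unadjusted p under 0.05 the list also had 0, beside 4.39% of all genes in CD115+ cells and 7.72% in aorta.

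Other sensors of foreign nucleic acid and other antiviral genes were counted in the same contrasts. Of 13 sensing genes 10 had lower means in double-deficient CD115+ cells, beside 55.3% of all genes. The median difference was -0.21, and 2 (Dhx58 and Ifih1) did not overlap, beside 5.23% of all genes. Dhx58 had -0.74, -0.39 and -0.10 in double-deficient preparations, against 0.16, 0.10 and 0.23 in ApoE-deficient preparations (log2 difference -0.58, SE 0.16). Ifih1, the sensor of long double-stranded RNA, differed by -0.33 (SE 0.12), and Eif2ak2, the kinase that stops translation on such RNA, by -0.22 (SE 0.11). Zbp1, a sensor of Z-form nucleic acid, was at -1.37 in double-deficient replicate 1, against 0.15 in double-deficient replicate 3, and differed by -0.57 (SE 0.38). Of these 13 genes 0 passed the adjusted threshold and 2 had an unadjusted p under 0.05, beside 4.39% of all genes (limma).

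Of 18 antiviral effector genes 15 had lower means in double-deficient CD115+ cells (median -0.22), beside 55.3% of all genes. Of these, 4 were without overlap, namely Usp18, Rtp4, Bst2 and Isg15, beside 5.23% of all genes. Isg15, a ubiquitin-like protein put on others after interferon, differed by -0.34 (SE 0.12). Again 0 passed the adjusted threshold, and 4 had an unadjusted p under 0.05, beside 4.39% of all genes (limma). Among 14 genes of interferon signalling the directions were even, with 7 lower and 7 higher and a median of 0.03. Irf7, the factor that amplifies the interferon response, had -0.65, -0.49 and -0.05 in double-deficient preparations, against 0.05, 0.09 and 0.11 in ApoE-deficient preparations (log2 difference -0.48, SE 0.15). Irf1 and Jak1 differed the other way, by 0.31 (SE 0.22) and 0.30 (SE 0.21). Of these 14 genes 0 passed the adjusted threshold and 1 had an unadjusted p under 0.05, beside 4.39% of all genes (limma). Without overlap were 1 lower (Irf7) and 1 higher (Ifnar1, a chain of the interferon receptor, 0.11, SE 0.08, named after its value was seen), beside 5.23% and 3.93% of all genes.

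In aorta the sensing list had a median of -0.15 (9 of 13 lower) and the effector list -0.12 (13 of 18 lower). The signalling list had -0.20 (10 of 14 lower), and of all genes 47.2% were lower in aorta. In each list 0 genes passed the adjusted threshold (limma), beside 0.00451% of all genes. At an unadjusted p under 0.05 the counts were 0, 0 and 3, beside 7.72% of all genes. Usp18, a protease that takes ISG15 off proteins, had -0.92, -1.18, 0.10 and -0.08 in double-deficient aortas, against 0.39, 0.11, 0.08 and -0.13 in ApoE-deficient aortas. Its groups overlapped (log2 difference -0.63, SE 0.29, adjusted p = 0.657, limma). Irf8, a factor of B cells and myeloid cells, had the largest difference of the signalling list in aorta (-1.41, SE 0.57). Its ApoE-deficient values of 2.27, 1.95, -0.55 and 0.72 were highest in replicates 1 and 2. In these 2 aortas the B cell list means were 2.45 and 2.36. The T cell list means were 1.13 and 1.20 there, and the NK cell list means 0.95 and 0.66. The plasmacytoid dendritic cell list had 0.28 and 1.502, the latter with Klk1, 1 of its 6 genes, at 6.99. The part of any of these cells in the Irf8 values was not tested.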

How the data were processed

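From each sample 1 ng of total RNA was turned into cDNA, amplified and biotin-labelled, per the labels' protocols. The authors deposited array values for 33793 probe sets in 14 samples, taken here to be log2 values; the sources used here name neither the log base nor the array normalization. Every probe set has a median of 0 in each tissue, so the deposited values had been centred. The annotation gave 1 gene for 23521 probe sets; the 1814 with several and the 8458 with none were left out, and probe sets of 1 gene were averaged. No gene was filtered out, since the values hold no level.

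Within a tissue the genotypes were compared by lmFit and eBayes (limma 3.58.1, R 4.3.3), with Benjamini-Hochberg adjustment over 22180 genes and a threshold of 0.05. P-values measure only the spread between these samples, and the number of arrays limits the precision. On simulated arrays with the aorta spread (22180 genes) and independent noise, the fit recovered 76.1%, 98.5% and 100% of genes given log2 changes of 1, 2 and 4. It also called 13 genes given no change. The changed genes were drawn at random, whereas Oas1g and Oas1b had a larger SD over the aortas than 98.4% and 92.1% of genes. The recovered shares therefore do not describe single family members. The simulation changed 67, 67 and 66 genes, whereas the real aorta contrast called 1 gene, and the adjusted threshold is easier to pass when more genes change. The shares may thus be too high for the real contrast. There Ltbr, at -1.64 (SE 0.17), did not pass (adjusted p = 0.0679, limma).

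The members, the gene lists and the rule for named genes were chosen with earlier results of these data known. The rule names all members, all measured genes of the synthetase list, up to 4 genes of smallest p per other list and tissue, Ltbr, and the 5 genes closest to the family mean per tissue; of these the text gives those its results turn on. Csf1r, Ifnar1, Apol9a, Apol9b and the genes beside the cluster were named after their values were seen. Promoters came from RefSeq's GRCm38.p6 table, which held 6 of the 8 members, and were aligned with biopython 1.88. Alternatives were the probe set of largest SD, array medians set to 0, quantile normalization, robust and trended eBayes, array weights, 1 fit over all 14 arrays, all probe sets, the pooled preparations left out, each array left out and the replicate number as a block.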

Additional observations from a re-analysis of the deposited data

Results flagged for a closer look

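In 28 groups of 4 aortas, 3 single samples stood apart from the rest of their group by Dixon's criterion (0.829 for 4 samples), a criterion that chance meets in about 1 of 20 groups. Oas3 was at -0.35 in double-deficient replicate 4, with a gap to the nearest sample of 0.877 of the range. Oas1f was at 0.18 in double-deficient replicate 4 (0.894 of the range). Pde12 was at -0.45 in ApoE-deficient replicate 3 (0.854 of the range).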

How the results depend on the processing

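The count of family members past the threshold in aorta was 0 under every alternative run, each array left out included; at an unadjusted p under 0.05 it was 1 without double-deficient replicate 3 or without ApoE-deficient replicate 1. The count of all genes called in aorta, 1 as reported, was 0 with the probe set of largest SD, robust eBayes, array weights or all probe sets tested, 19 in 1 fit over all 14 arrays, and 0 to 74 without single arrays (74 without ApoE-deficient replicate 3, 3 without double-deficient replicate 4); the cause was not tested. With the replicate number as a block it was 1, and the CD115+ family median was -0.51. Correlations of same-numbered deviations from the group means ran from -0.469 to 0.166. Only for aorta replicate 1 was the same-numbered ApoE-deficient sample the closest. With so few arrays, these correlations cannot decide whether the numbers pair the samples. The CD115+ family median, -0.51 as reported, lay between -0.33 and -0.58 without single preparations, was -0.62 without the pooled preparations and -0.42 with array weights. It was -0.87 without double-deficient replicates 2 and 3, where Oas1c turned to -0.12. The SE of Oas1g in CD115+ cells, 0.17 as reported, was 0.51 in 1 fit over all 14 arrays. That of Oas2 in CD115+ cells, 0.27 as reported, was 11.3 with trended eBayes. Oasl2 in aorta, 0.03 as reported, lay between -0.092 and 0.18 without single arrays and was below 0 in 4 of these fits. The motif with a C after it was in 0.819% of promoter windows and 3 of 6 members. Signal over background was not among the values used, so a weak gene cannot be told from background.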
